A study of Rattus norvegicus with 10 samples.

Results

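Immediate early genes were followed as 5 features out of 26404 listed for each library: Fos, Egr1, Arc, Junb and Jun. They were chosen by Ensembl identifier, and all 5 identifiers were present in the files on the chromosome given for each gene, so none was dropped. The tissue was right cerebral cortex, taken at embryonic day 21 from 10 fetuses of Sprague Dawley rats and sequenced as 10 libraries. In the oxytocin group 5 fetuses, each from a different dam, were exposed through a dam given oxytocin intravenously at 100 mcg per kg, and in the saline group 5 fetuses, again each from a different dam, came from dams given an equal volume of saline. The cortex was studied 24 h after the injection, and the comparison asked whether early response transcripts differed in the fetal cortex at that time. Each library is 1 fetus, and fetal sex is not among the labels.

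Immediate early genes are transcribed within minutes of a stimulus without the need for new protein synthesis, and their transcripts are usually short-lived. In neurons they follow synaptic activity and growth factor signals through the MAP kinase pathway, serum response factor and CREB, and they are widely used as a mark of recently active cells. Fos, Jun and Junb encode subunits of the dimeric transcription factor AP-1, Egr1 encodes a zinc finger transcription factor, and Arc encodes a synaptic protein that acts in the endocytosis of AMPA receptors. In bulk cortex, fewer cells of a type that expresses a gene and less of its RNA per cell cannot be told apart.

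The libraries held 18723390 to 30404127 counts each after oxytocin and 18555172 to 20776414 each after saline. After the filter on low counts 14400 features were tested, with all 5 immediate early genes included. Gene symbols are not paired with identifiers in the files, and the gene table at hand lists none of the Ensembl identifiers. The symbols of the 5 genes are therefore those supplied with their identifiers, and marker genes of cortical cell types and further early response genes were not analysed here.

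The 5 genes are compact and, in the coordinates of the files (build Rnor_5.0 per the submitters' processing notes), 0 other listed features overlapped any of them. Fos (ENSRNOG00000008015) lies on chromosome 6 from 116249742 to 116252608 on the minus strand, with 4 listed exon intervals. Egr1 (ENSRNOG00000019422) lies on chromosome 18 from 27369166 to 27372951 on the plus strand, with 2 intervals. Arc (ENSRNOG00000043465) lies on chromosome 7 from 115812499 to 115815943 on the minus strand, with 3 intervals. Junb (ENSRNOG00000042838, chromosome 19, 37069075 to 37070109) and Jun (ENSRNOG00000026293, chromosome 5, 117958961 to 117959965) are each listed as 1 interval on the minus strand. The Junb and Jun intervals hold 1035 and 1005 bases, each a whole number of codons, as is the listed length of Egr1 (3114 bases). Whether these models leave out untranslated sequence was not tested, and reads falling outside the listed intervals are not in the counts.

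No immediate early gene passed the test for a difference between oxytocin and saline. Of the 5 genes, 0 had an adjusted p under 0.05 in edgeR's quasi-likelihood test, where 0 of 14400 features did (0%) and 514 had an unadjusted p under 0.05. By other tests, limma voom called 0 features and DESeq2 without independent filtering 6, with none of the 5 genes among them. With its default independent filtering DESeq2 called 7 features, but 4 of the 5 genes (Fos, Egr1, Arc and Junb) then had no adjusted p and could not be called. All 5 fold changes were above 0 with this scaling, as were those of 48.2% of tested features, though that of Jun was below 0 (-0.015) with scaling by library size alone. Of the 5, 1 gene, Egr1, had an unadjusted p under 0.05, against 3.57% of tested features in either direction and 1.93% in the direction of higher after oxytocin. The median log2 fold change of the 5 was 0.11, against -0.0031 over all tested features. The groups overlapped for each of the 5, and groups without overlap were found for 0.701% of tested features. Levels are given below as CPM scaled with TMM factors. CPM is the count scaled to a common library total, and the TMM factor corrects it for library composition.

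Egr1 had the lowest unadjusted p of the 5. Its counts were 541, 447, 514, 332 and 467 in oxytocin replicates 1 to 5 and 261, 342, 307, 287 and 377 in saline replicates 1 to 5. Scaled, these were 17.9, 18.2, 23.3, 17.0 and 25.4 CPM after oxytocin and 13.2, 16.1, 15.5, 15.3 and 20.1 CPM after saline. All 5 oxytocin libraries lay above the saline median of 15.5 CPM and 4 saline libraries lay below the lowest oxytocin library, but saline replicate 5 stood above oxytocin replicates 1, 2 and 4. Group means of log2 CPM were 4.34 ± 0.26 (oxytocin) and 3.999 ± 0.22 (saline; SD, n = 5 each). The log2 fold change was 0.34 ± 0.13 (SE), or 1.27-fold, with a 95% interval from 0.062 to 0.62 on the log2 scale. The unadjusted p was 0.0202 and the adjusted p 0.9997 (edgeR quasi-likelihood test), a rank of 181 by p among the 14400 features. A permutation of the labels on its log2 CPM gave p = 0.0714 (exact two-sided permutation test), where 0.00794 is the smallest p that 5 against 5 can give. Without oxytocin replicate 5 the log2 fold change was 0.25, and without saline replicate 5 it was 0.43.

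Junb, an AP-1 subunit, had the next lowest p. It held 193, 193, 161, 146 and 157 counts in the oxytocin libraries and 120, 147, 126, 118 and 139 counts in the saline libraries. The scaled levels were 6.38, 7.84, 7.30, 7.49 and 8.54 CPM after oxytocin and 6.08, 6.92, 6.35, 6.31 and 7.40 CPM after saline. All 5 oxytocin libraries were again above the saline median, oxytocin replicate 1 by the least, and 3 of them exceeded the highest saline library. Group means of log2 CPM were 2.92 ± 0.15 (oxytocin) and 2.74 ± 0.11 (saline; SD, n = 5 each). The log2 fold change was 0.18 ± 0.097 (SE), with a 95% interval from -0.030 to 0.39. Its unadjusted p was 0.0872 and its adjusted p 0.9997 in edgeR's quasi-likelihood test. Permuting the labels gave p = 0.0714 (exact two-sided permutation test).

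Fos, the AP-1 subunit that dimerizes with Jun proteins, was the rarest transcript of the 5 and the most uneven between fetuses. It held 54, 40, 73, 34 and 65 counts in the oxytocin libraries and 49, 47, 43, 29 and 49 counts in the saline libraries. The scaled levels were 1.78, 1.63, 3.31, 1.75 and 3.53 CPM after oxytocin and 2.48, 2.21, 2.17, 1.55 and 2.61 CPM after saline. Oxytocin replicates 3 and 5 were above every saline library, while the other oxytocin libraries were below 4 of the 5 saline libraries. Group means of log2 CPM were 1.24 ± 0.53 (oxytocin) and 1.18 ± 0.28 (saline; SD, n = 5 each). The log2 fold change of Fos was 0.11 ± 0.25 (SE; adjusted p = 0.9997, edgeR quasi-likelihood test). Its 95% interval ran from a ratio of 0.745 to a ratio of 1.56, and changes of either sign lay within it. Without oxytocin replicate 3 the log2 fold change was -0.042 and without oxytocin replicate 5 it was -0.068, so its direction rested on those libraries.

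Jun, the most abundant of the 5, encodes the AP-1 subunit that pairs with Fos or with itself. It held 1276, 843, 923, 678 and 732 counts in the oxytocin libraries and 713, 754, 683, 704 and 901 counts in the saline libraries. The scaled levels were 42.2, 34.3, 41.8, 34.8 and 39.8 CPM after oxytocin and 36.1, 35.5, 34.4, 37.6 and 47.95 CPM after saline. The highest library of all was saline replicate 5, and the other saline libraries fell inside the oxytocin range. Group means of log2 CPM were 5.27 ± 0.14 (oxytocin) and 5.25 ± 0.19 (saline; SD, n = 5 each). The log2 fold change was 0.011 ± 0.093 (SE), with a 95% interval from -0.19 to 0.21 (adjusted p = 0.9997, edgeR quasi-likelihood test). The interval corresponds to ratios from 0.876 to 1.16. The sign changed with scaling by library size alone (-0.015) and without any 1 of 6 libraries, namely oxytocin replicates 1, 3 and 5 and saline replicates 1, 2 and 3, where the lowest value was -0.027.

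Arc, the synaptic effector, held 164, 106, 140, 110 and 100 counts in the oxytocin libraries and 108, 92, 98, 97 and 101 counts in the saline libraries. The scaled levels were 5.42, 4.31, 6.35, 5.65 and 5.44 CPM after oxytocin and 5.47, 4.33, 4.94, 5.19 and 5.38 CPM after saline. Replicate 2 was the lowest library in each group, and the saline range lay inside the oxytocin range. Group means of log2 CPM were 2.46 ± 0.20 (oxytocin) and 2.36 ± 0.13 (saline; SD, n = 5 each). The log2 fold change was 0.10 ± 0.12 (SE), with a 95% interval from -0.15 to 0.35 (adjusted p = 0.9997, edgeR quasi-likelihood test). It ran from 0.039 without oxytocin replicate 3 to 0.17 without oxytocin replicate 2, and was 0.049 without saline replicate 2.

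**Figure D1:**
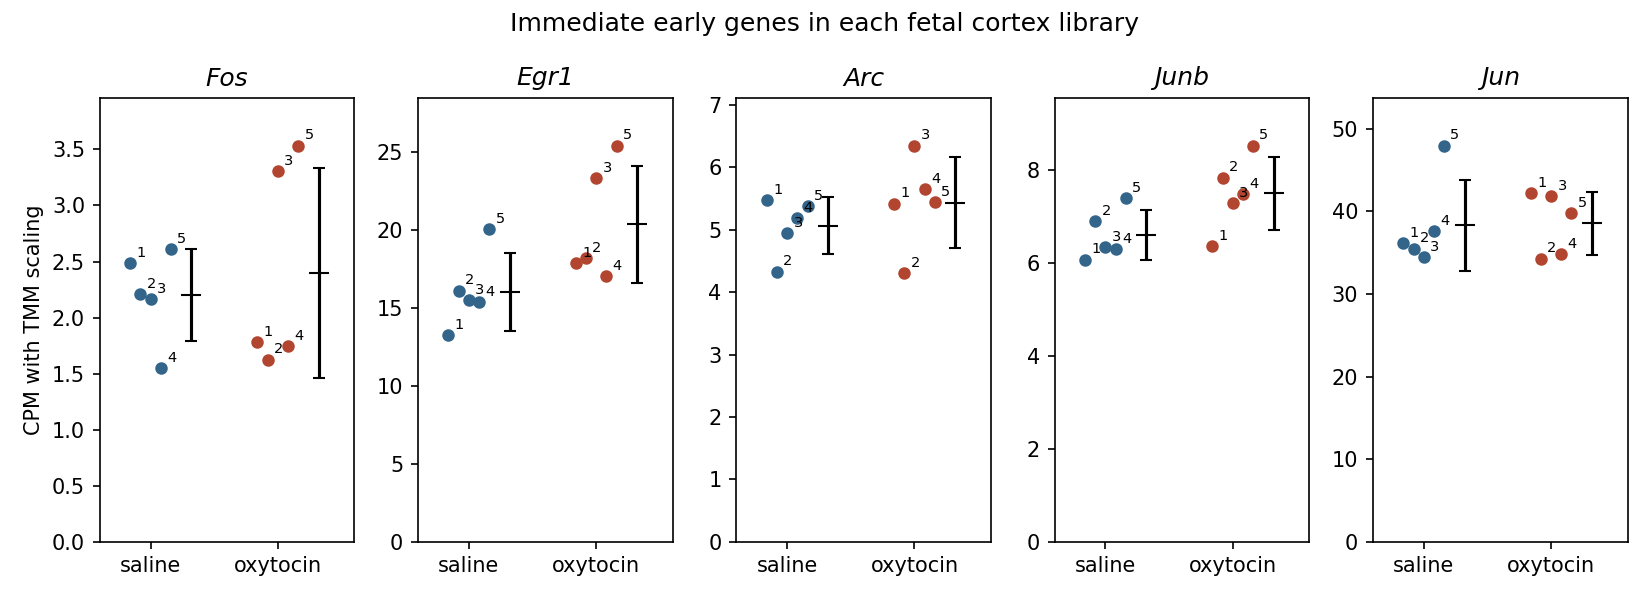
Scaled CPM (vertical axes, each from 0) of the 5 genes in the saline and oxytocin libraries. Each numbered point is 1 fetus by replicate, and the bar beside each group is its mean ± SD (n = 5 each); Egr1 and Junb sit higher on average after oxytocin with overlapping groups, and Fos splits into oxytocin replicates 3 and 5 above 3 CPM and the other 3 below 2 CPM.

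**Figure D2:**
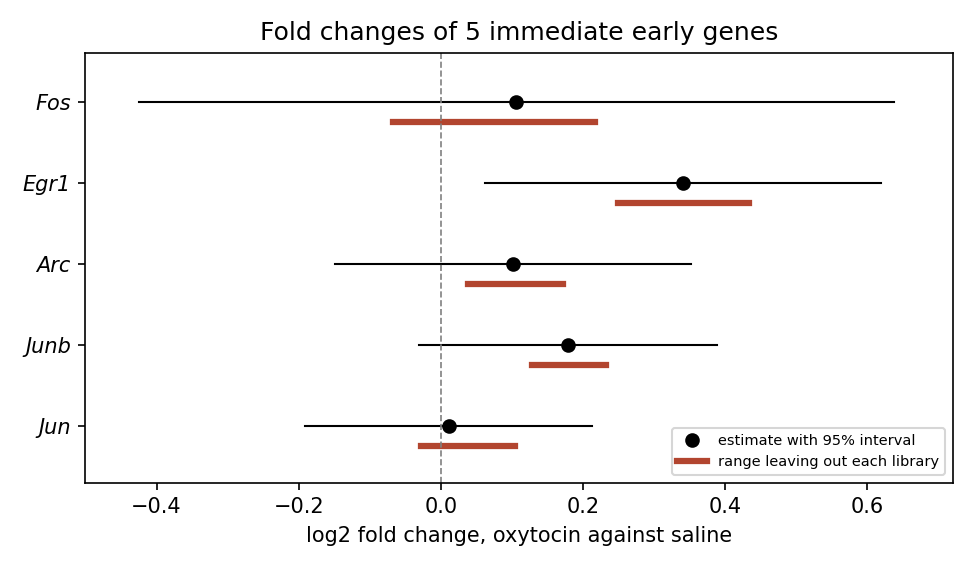
Log2 fold change of each gene, oxytocin against saline (horizontal axis), from edgeR. Black points and lines are the estimate and its 95% interval over all 10 libraries, and red bars show the range when each library was left out in turn; the interval of Egr1 (0.062 to 0.62) lies above 0, and the other 4 intervals cross 0.

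Per base of listed length, the genes kept a steep order of level. The deposited RPKM, which is CPM per kilobase, averaged 38.2 ± 4.5 for Jun, 6.81 ± 0.72 for Junb, 5.83 ± 1.17 for Egr1, 1.73 ± 0.19 for Arc and 1.447 ± 0.43 for Fos (SD, n = 10 libraries each). Jun stood 5.61 times above Junb, and Egr1 3.37 times above Arc, each in 10 of 10 libraries. The other neighbours in this order were close. Junb averaged 1.17 times the level of Egr1 and was above it in 9 of 10 libraries, the exception being oxytocin replicate 3 with 7.43 RPKM for Egr1 and 7.003 RPKM for Junb. Arc averaged 1.20 times the level of Fos and was above it in 9 of 10 libraries, the exception being oxytocin replicate 5 with 2.18 RPKM for Fos and 1.77 RPKM for Arc. For both of these close pairs the ranges over the 10 libraries overlapped. RPKM rests on the listed lengths, which for Jun and Junb are the single intervals given above.

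The genes differed in how far the spread between fetuses exceeded counting error. The variance of the counts around their group means was 12.0 times that expected from counting alone for Jun, 11.0 times for Egr1 and 4.80 times for Fos, against 1.59 times for Arc and 1.445 times for Junb. The median over all tested features was 3.29 times, and deeper-counted genes reach higher ratios at the same biological spread. The biological coefficient of variation estimated by edgeR takes counting error out, and each gene's value is drawn toward the trend at its level. It was 24.5% for Fos, 14.0% for Egr1 and 10.4% for Jun, each above the trend at its level (19.8%, 10.4% and 8.33%). For Arc and Junb it was 11.1% and 9.46%, below the trend values of 15.4% and 13.7%. Leaving out each library in turn kept Fos and Egr1 above the trend and Arc and Junb below it. For Jun this rested on saline replicate 5, without which its variance was 5.49 times counting error, under the 9.19 times of Egr1, and its coefficient of 7.60% lay below a trend of 8.13%. The variance ratio of Arc was 0.792 without oxytocin replicate 2, and that of Junb was 0.805 without oxytocin replicate 1. Their coefficients in those fits were still 9.54% and 8.26%, so the values for Arc and Junb rest in part on the trend. Counting error alone would give Fos a standard deviation of 0.21 in log2 units, against an observed within-group value of 0.42.

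**Figure D3:**
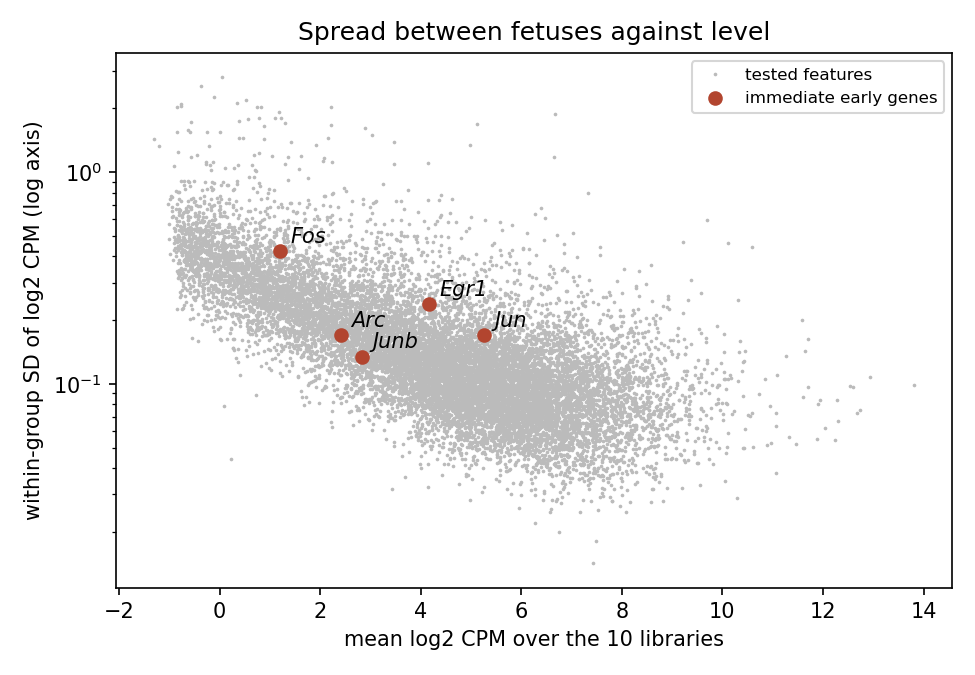
Within-group SD of log2 CPM (vertical, log axis) against mean log2 CPM over the 10 libraries (horizontal) for the 14400 tested features in grey and the 5 genes in red. Spread falls with level among all features; Fos, Egr1 and Jun lie in the upper part of the cloud at their level, Jun through saline replicate 5, and Arc and Junb lie in its middle.

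Over the 10 libraries, Egr1 and Junb had the highest correlation of the 10 pairs, while Fos and Egr1 had the highest once the group means were removed (r = 0.73, against 0.69 for Egr1 and Junb). The log2 CPM of Egr1 and Junb gave Pearson's r = 0.80 (permutation test, p = 0.00493, adjusted p = 0.0493 over 10 pairs) and Spearman's rho = 0.83 (permutation test, p = 0.00473, adjusted p = 0.0473). Oxytocin replicate 5 was the highest library for both genes and saline replicate 1 the lowest for both. Among 14399 other features, Junb ranked 59th by r with Egr1, and Egr1 ranked 70th by r with Junb, so 0.403% and 0.479% of features followed each gene more closely. This pair was picked as the highest of the 10. For the other pairs the share ran from 2.33% (Fos and Egr1) to 50.6% (Arc and Junb). With the group means removed the r of Egr1 and Junb was 0.69 (permutation within groups, p = 0.0451, adjusted p = 0.222). Without the 2 libraries farthest from the Egr1 median it was 0.73 (exact permutation test, p = 0.0381, adjusted p = 0.381). The adjusted call was also lost without oxytocin replicate 5 (r = 0.68, adjusted p = 0.411 in an exact permutation test) and without each of saline replicates 1 to 5 (adjusted p of 0.0847 to 0.121). An r within each group of 5 libraries was not computed. The first principal component of the other 14395 features, which held 28.2% of their variance, gave r = -0.62 with Junb (permutation test, p = 0.0645, adjusted p = 0.645 over 10 relations) and r = -0.42 with Egr1 (permutation test, adjusted p = 0.758). With that component removed the r of Egr1 and Junb was 0.76 (adjusted p = 0.0785 by permutation). Library depth gave r = 0.047 with Egr1 and -0.13 with Junb (permutation tests, adjusted p = 0.897 for both).

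**Figure D4:**
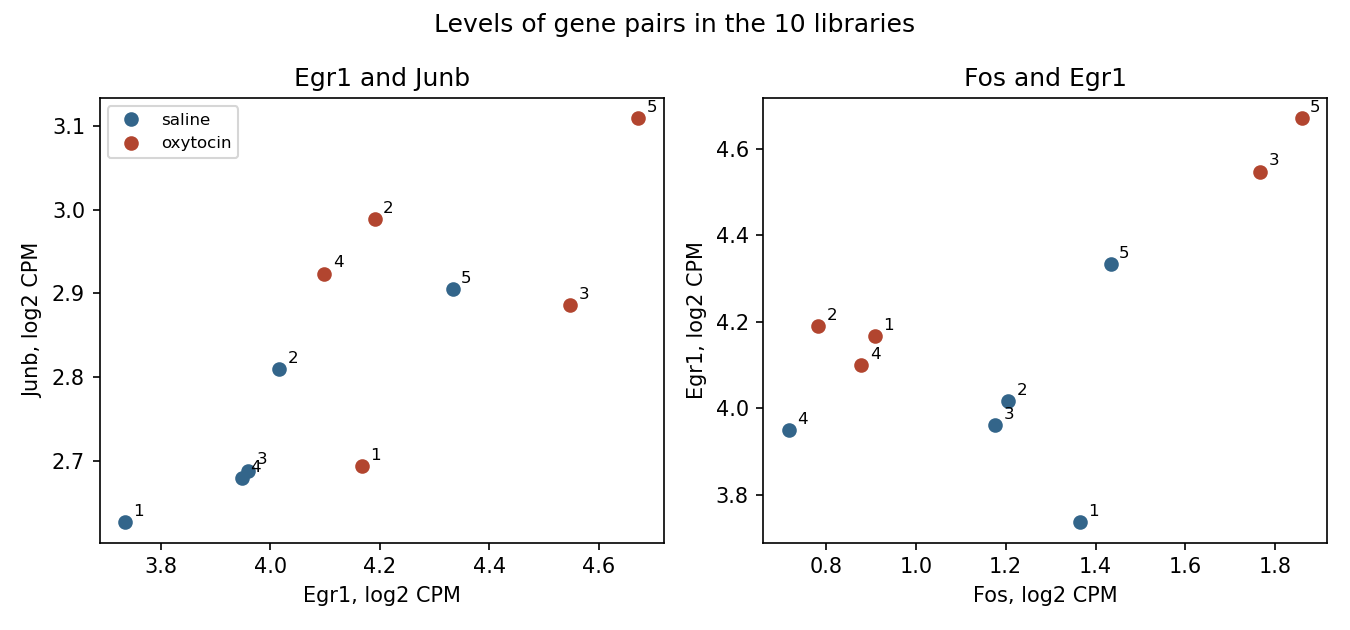
Log2 CPM of Junb against Egr1 (left) and of Egr1 against Fos (right) in the 10 libraries, with oxytocin in red, saline in blue and replicate numbers beside the points. Egr1 and Junb rise together from saline replicate 1 to oxytocin replicate 5, whereas the slope of Egr1 on Fos depends on oxytocin replicates 3 and 5.

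The table of promoters held 2 of the 5 genes, Egr1 and Junb, and only these could be shown. The windows run from 250 bases before to 50 bases after the RefSeq start site in build GRCr8. The Egr1 window is chr18:26736828-26737127 and the Junb window chr19:40080876-40081175, both on the plus strand. Junb is on the minus strand in the coordinates of build Rnor_5.0 given above, so its listed strand differs between the builds. Capitals mark matches on either strand to the CArG box, which binds serum response factor, to TGACG, the half-site of the cAMP response element bound by CREB, and to TATAAA, the TATA box.
Egr1: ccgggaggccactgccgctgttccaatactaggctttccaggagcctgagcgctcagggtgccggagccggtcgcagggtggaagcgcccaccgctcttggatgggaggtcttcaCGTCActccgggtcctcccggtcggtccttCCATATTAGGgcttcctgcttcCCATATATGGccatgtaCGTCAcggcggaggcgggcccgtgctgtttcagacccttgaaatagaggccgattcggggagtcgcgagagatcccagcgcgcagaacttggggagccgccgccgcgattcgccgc
Junb: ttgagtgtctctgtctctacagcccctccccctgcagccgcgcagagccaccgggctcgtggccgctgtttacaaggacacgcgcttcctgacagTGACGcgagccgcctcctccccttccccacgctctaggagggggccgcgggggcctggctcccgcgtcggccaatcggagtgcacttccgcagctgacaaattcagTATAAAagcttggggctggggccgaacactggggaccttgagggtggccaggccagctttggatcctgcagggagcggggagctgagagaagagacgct
Counting bases from 1 at the 5′ end, the Egr1 window held 2 CArG boxes, at bases 146 to 155 (CCATATTAGG) and 168 to 177 (CCATATATGG), and half-sites at bases 116 to 120 and 185 to 189. The Junb window held 0 CArG boxes, 1 half-site at bases 96 to 100 and 1 TATA box at bases 202 to 207. Among 33469 promoter windows of the same length, 1.64% held at least 1 CArG box and 0.0209% held 2 or more. At least 1 half-site was found in 21.2% of the windows, 2 or more in 4.96%, and at least 1 TATAAA in 14.2%. Neither gene's window matched the full element TGACGTCA, which contains the half-site and was found in 1.83% of windows, or the AP-1 site TGACTCA, found in 4.63%. These are matches of letters only, and a missing match says nothing about binding elsewhere in the gene.

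The remaining 9 pairs did not pass. Fos and Egr1 gave r = 0.62 and rho = 0.53 (permutation tests, p = 0.0554 and 0.125, adjusted p = 0.277 and 0.390 over 10 pairs). Oxytocin replicates 5 and 3 ranked first and second for both genes, and without these, the 2 libraries farthest from the Fos median, r was -0.10 (exact permutation test, p = 0.804), so over all libraries the relation rested on this pair of fetuses together. Without oxytocin replicate 5 alone r was 0.42 and without oxytocin replicate 3 alone 0.51, neither past 0.05 before adjustment (exact permutation tests, p = 0.268 and 0.162). It was 0.73 with group means removed (permutation within groups, p = 0.0481, adjusted p = 0.222) and 0.83 without saline replicate 1 (exact permutation test, p = 0.00703, adjusted p = 0.0703). Egr1 and Jun gave r = 0.55 (rho = 0.42), Arc and Jun r = 0.51 (rho = 0.44), Fos and Arc r = 0.47 (rho = 0.45), Fos and Jun r = 0.45 (rho = 0.50), Fos and Junb r = 0.39 (rho = 0.24), and Egr1 and Arc r = 0.37 (rho = 0.22). Their adjusted p ran from 0.325 to 0.377 for r and from 0.390 to 0.670 for rho in permutation tests. Of these, Fos and Junb moved from 0.049 without oxytocin replicate 5 to 0.60 without oxytocin replicate 2, Egr1 and Arc fell to 0.13 without oxytocin replicate 3, and Fos and Arc to 0.26 without that library. Junb and Jun, which share the AP-1 partner role, gave r = 0.15 (rho = -0.030), with a range of 0.050 to 0.31 when each library was left out, and Arc and Junb r = -0.0032 (rho = 0.030). The median r of the 10 pairs was 0.46, with 0.46 after group means were removed, 0.55 after the first principal component was removed, and 0.22 without the 2 libraries farthest from the median of each pair's first gene, while the median r of each gene with all other tested features lay between -0.010 and 0.018.

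**Figure D5:**
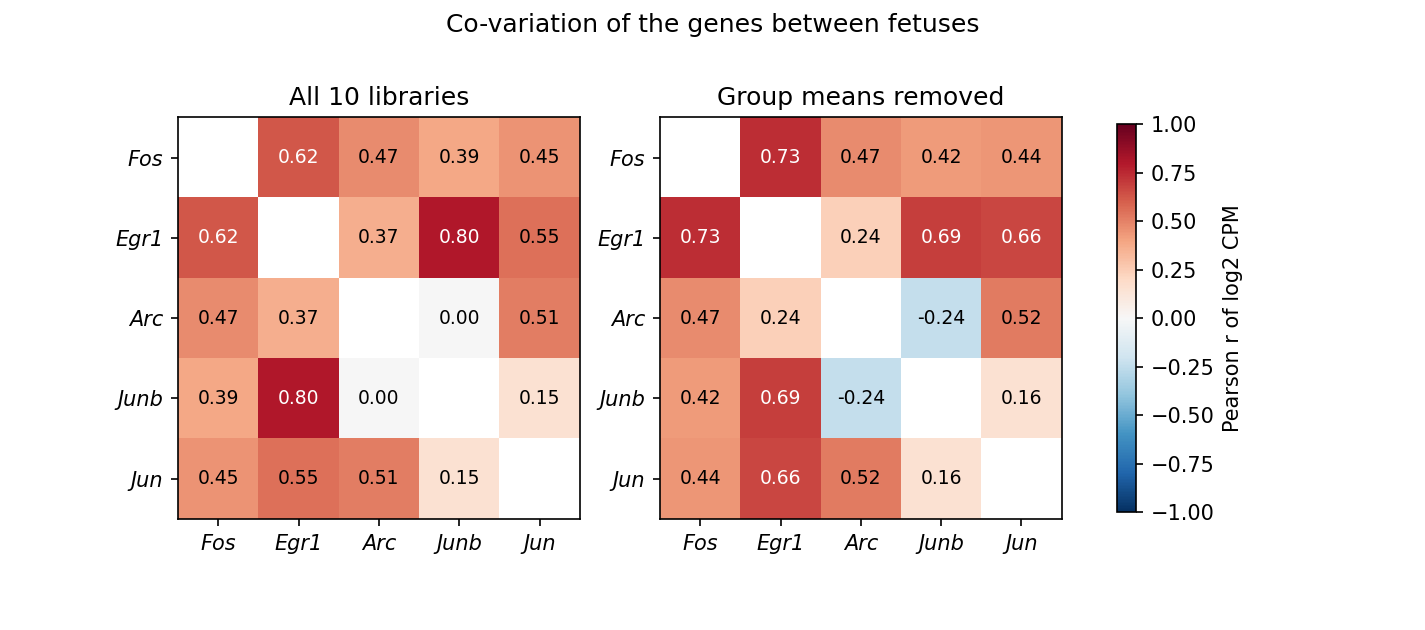
Pearson's r of log2 CPM for the 10 pairs of genes, over all 10 libraries (left) and after each group's mean was subtracted (right), on a colour scale from -1 to 1. Egr1 and Junb have the highest r on the left (0.80) and Fos and Egr1 on the right (0.73), and Arc and Junb are the pair without a positive r in either panel.

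Read by fetus, the genes did not single out all libraries of a group. Oxytocin replicate 3 was among the highest 3 libraries for 4 of the 5 genes, and oxytocin replicate 5 and saline replicate 5 for 3 each. At the other end, saline replicate 3 was among the lowest 3 libraries for 4 genes, and oxytocin replicate 2 and saline replicate 4 for 3 each. Oxytocin replicate 4 was among the highest 3 for 2 genes and among the lowest 3 for 2. The same counts were not made over all tested features, so they describe these 5 genes only. Oxytocin replicate 2 showed how the genes could part within 1 fetus, since it was second highest for Junb and lowest for Arc and Jun. The features most like each gene over the 10 libraries were none of the other 4. They were ENSRNOG00000018433 for Egr1 (r = 0.98), ENSRNOG00000000029 for Jun (r = 0.96), ENSRNOG00000008118 for Arc (r = 0.94), ENSRNOG00000039832 for Junb (r = 0.92) and ENSRNOG00000007948 for Fos (r = 0.91). Each is the highest r among 14399 features, given as a description, and the files do not pair these identifiers with names.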

How the data were processed

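RNA-seq was done on 10 libraries, 5 per group, grouped by the labelled maternal treatment; replicate numbers follow accession order. Per the labels' protocols, RNA of high integrity was selected with oligo-dT. The submitters' processing notes name bcl2fastq, STAR 2.0.4b, Subread, featureCounts and build Rnor_5.0; strand handling is not given in the sources used here. Per the file headers, each file gives a whole-number count, a CPM and an RPKM per feature. Tested on every feature, the deposited CPM equals the count scaled to the same total in every library, and the deposited RPKM that CPM per kilobase of listed length.

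Counts were filtered (filterByExpr) and scaled with TMM factors, which were 0.983 to 0.996 for oxytocin libraries and 1.001 to 1.02 for saline libraries. The factors therefore raised every oxytocin level relative to saline. Tests used edgeR 4.0.16 (R 4.3.3, quasi-likelihood, no covariates), adjusted by Benjamini-Hochberg over all tested features. The SE is the fold change over the square root of F. Log2 CPM used a prior count of 2. Correlations used 100000 label permutations for 10 libraries, all permutations for fewer and 14400 permutations within groups, two-sided by the size of r. Scripts were tested on simulated data. Within groups, 20 library pairs differed by 4.08 to 18.3 chi-square per degree of freedom, so each library counted as 1 replicate.

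The 5 genes, the pairs and the rules for named genes were chosen with earlier results of these data known. The genes named are the 5 and, for each, the tested feature with the highest r. Further early response genes and cell type markers had been listed by symbol and were not analysed here, since identifiers could not be paired with symbols. Alternatives were DESeq2 1.42.0, limma 3.58.1 (voom), other scalings, filters and prior counts, and leaving out each library.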

Additional observations from a re-analysis of the deposited data

Results flagged for a closer look

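Jun in saline replicate 5 stood apart from the other saline libraries, at 47.95 scaled CPM where the others had 34.4 to 37.6. Its gap to the nearest was 0.73 of the group's range in log2 CPM, above Dixon's 95% critical value of 0.71 for 5 libraries. This was 1 of 24 checks made on the 5 genes and the library totals, and chance flags about 1 in 20 groups. Without that library the log2 fold change of Jun was 0.104, the highest of the fits that left out 1 library. That fetus was also the highest saline library for Egr1 (20.1 CPM), Junb (7.40 CPM) and Fos (2.61 CPM), none of which passed the same check, and it was not the highest for Arc.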

How the results depend on the processing

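DESeq2 without independent filtering, removal of the first principal component and the measures of spread without each library were chosen after seeing the data. The number of features past an adjusted p of 0.05 was 7 with DESeq2 and 6 without its independent filtering (498 at an unadjusted p under 0.05 in each). With that filtering 4 of the 5 genes had no adjusted p, so their absence from the 7 could not come out otherwise, and without it none of the 5 was called. It was 0 in the other alternatives with all libraries, limma voom included, where 490 to 728 features had that unadjusted p, and 0 without each library (420 to 841). Egr1, Junb and Arc kept a fold change above 0 in every fit run, with Egr1 between 0.25 and 0.43 and an unadjusted p between 0.00438 and 0.0714. Scaling by library size alone moved the share higher among features at an unadjusted p under 0.05 from 54.1% to 25.3% and gave Jun -0.015. Without each library Jun ran from -0.027 to 0.10 and Fos from -0.068 to 0.22. For Egr1 and Junb, r was 0.69 with group means removed, 0.79 with library size alone, 0.73 without the 2 farthest libraries and 0.76 without the first component, each past 0.05 before adjustment and not after, and it ran from 0.68 to 0.85 without each library. Arc and Junb, near 0, gave 0.030 by Spearman, 0.38 without the 2 farthest, 0.25 without the component, -0.24 with group means removed and -0.10 to 0.25 without each library, and Junb and Jun gave -0.030 by Spearman. Without the 2 farthest libraries Fos and Egr1 gave -0.10, Fos and Junb -0.17, and Egr1 and Arc -0.088. With the first component removed Egr1 and Jun gave 0.69 and Fos and Arc 0.65 (permutation p = 0.0289 and 0.0386, adjusted p = 0.129 for both). The cause of these differences was not tested. No paired analysis was made, since each fetus came from a different dam and the labels link no fetuses between the groups. Fos had 29 to 73 counts per library, and for Arc and Junb the spread between fetuses was nearest to counting error (1.59 and 1.445 times its variance).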
